A study of Prunus persica with 18 samples.

Results

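Apical buds of peach (Prunus persica) were compared between 79 and 45 days after full bloom (DAFB). The comparison used the libraries whose column names give the upper position on the shoot and the last or the first sampling time, which were 6 of the 18 RNA-Seq libraries of the series. The later group (T5, 79 DAFB) and the earlier group (T1, 45 DAFB) held 3 biological replicates each. Both groups came from shoots of the flat-nectarine Platinet 1 that had not been treated, grown in a single orchard in a single season, so that they differ in time but not in genotype or treatment. Each library was made from buds cut from the upper part of pooled shoots. Buds of the lower part of the shoots (basal buds) at the same times, and apical buds at 58 DAFB (T3), are used below only where they show how the apical change is placed.

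The axillary buds of peach pass from vegetative to reproductive growth in early summer, months before the flowers open. In Arabidopsis, where the genes are best known, FT is a mobile signal that promotes this transition in the shoot meristem, TFL1 and its relative CEN act against it and keep the meristem undetermined, SPL transcription factors promote it with plant age, and AP1 gives the young meristem its floral identity. Gibberellins inhibit flowering in stone fruits, and trehalose 6-phosphate, made by trehalose phosphate synthases, is a signal of sugar status that acts on flowering in Arabidopsis.

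The libraries held 41764570, 38206592 and 27373887 counts at T5 and 31529524, 31715969 and 40542893 counts at T1, in 26873 annotated genes. Between 21300 and 21744 genes had at least 1 count in a T5 library and between 21544 and 21726 in a T1 library, so that the number of genes detected was about the same at both times. The 19374 genes that passed the filter on low counts were tested. Levels are given as normalized counts, which are counts scaled to the mean effective size of the 18 libraries. They are not divided by gene length, so that levels are compared between times and not between genes. In whole buds, fewer cells of a type and less RNA per cell cannot be told apart.

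Taken over all genes, the replicates at T5 were more spread than those at T1, though not in every gene named below. Across genes, the Pearson correlation of log2 CPM between libraries of the same group was 0.983 to 0.990 at T5 and 0.995 at T1 for each pair. A library was counted as apart on a gene where it lay more than 2-fold from both other libraries of its group. This was the case for 266 genes in T5 replicate 1, 186 in T5 replicate 2 and 145 in T5 replicate 3, against 51, 57 and 42 genes in the 3 T1 libraries. Of the 266 genes of T5 replicate 1, 254 (95.5%) were displaced toward the level in basal buds of the same time, against 66.7% and 71.7% in the other T5 libraries. In root mean square over genes, that library lay 0.39 log2 units from the basal T5 mean, while the other T5 libraries lay 0.52 and 0.48 away. Its part in the results was measured by leaving it out, and results that depend on it are given with and without it.

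**Figure D1:**
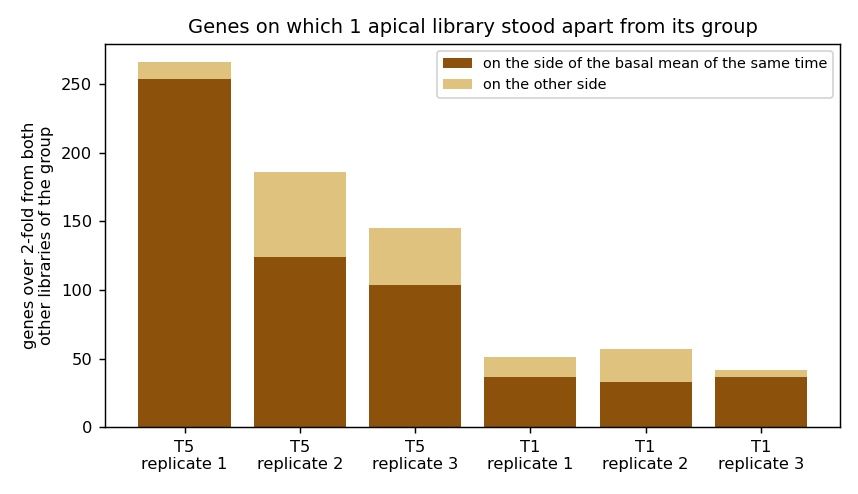
Number of genes (y axis) on which each apical library (x axis, T5 left of T1) lay more than 2-fold from both other libraries of its group. Dark bars count the genes displaced toward the basal mean of the same time and light bars those displaced away from it. T5 replicate 1 has 266 such genes, 254 of them on the basal side, and the T1 libraries have 42 to 57.

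The change between the 2 times touched a large part of the transcriptome, with more genes falling than rising. With the limits of the study's methods, which are an FDR below 0.01 together with a 2-fold difference or more (edgeR quasi-likelihood test, Benjamini-Hochberg adjustment), 4557 of the 19374 genes tested were called (23.5%). Of the genes called by edgeR, 1859 were higher at T5 (9.6% of the genes tested) and 2698 were lower at T5 (13.9%). DESeq2 called 4582 (23.7%) at the same limits, 4433 of them in common. The called genes that rose had a median log2 fold change of 1.65 and those that fell a median of -1.60, while the median over all tested genes was -0.022. Without the limit on fold change, 9407 genes (48.6%) passed the FDR, of which 4338 were higher and 5069 lower at T5. Most changes were moderate, since 650 genes rose and 803 fell by a log2 fold change of at least 2 in size, 244 rose and 226 fell by at least 3, and 92 rose and 100 fell by at least 4. The T5 and T1 libraries did not overlap in 4556 of the 4557 called genes, and did not overlap in 69.7% of all tested genes.

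The direction of the change differed with the level of expression. Among 3593 genes with a mean below 100 normalized counts, 12.9% were called higher and 20.2% lower at T5. Among 8612 genes between 100 and 1000, the shares were 8.28% higher and 15.6% lower. Among 6645 genes between 1000 and 10000 they were nearly even, at 8.70% and 8.77%. Among the 524 genes above 10000, 19.7% were called higher and 8.59% lower. The most abundant transcripts therefore rose more often than they fell, while the less abundant ones fell more often.

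Called genes took up the following parts of the sequenced transcripts, given as a description because the same libraries chose the genes. The genes called higher at T5 received 18.2%, 21.0% and 19.9% of all counts in the T5 libraries, against 6.24%, 6.33% and 6.43% in the T1 libraries. The genes called lower received 4.83%, 4.03% and 4.65% of the counts at T5, against 15.4%, 15.2% and 15.3% at T1. The 10 most abundant genes of each library took 3.71% to 4.34% of its counts at T5 and 3.51% to 3.57% at T1, so that no few transcripts dominated the libraries of either time.

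**Figure D2:**
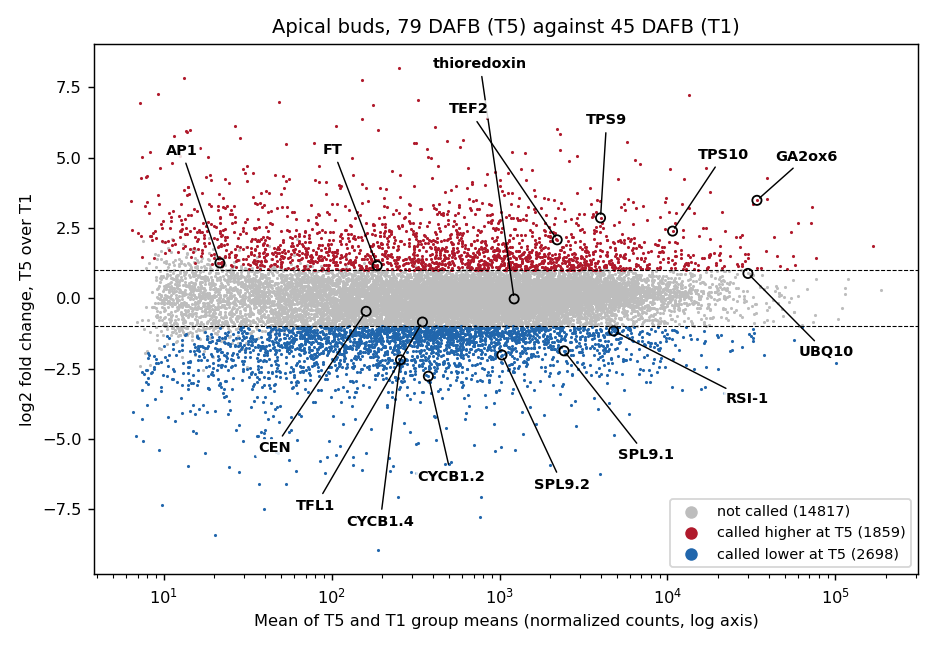
Log2 fold change of each tested gene in apical buds, T5 over T1 (y axis), against the mean of its 2 group means in normalized counts (x axis, log scale). Red points are the 1859 genes called higher at T5, blue points the 2698 called lower, grey points the genes not called, dashed lines mark a 2-fold change, and circles mark the 15 genes named by the study. Red points outnumber blue ones only at the right end of the axis.

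Genes that the study itself names were followed first. It chose these 15 genes in part for their change in these samples, so that their counts are a description and not independent evidence. All 15 passed the filter on low counts, and 6 were called higher, 5 lower and 4 not called, beside the 23.5% called among all genes tested. The 6 flowering genes included 2 called higher (PpFT and PpAP1), 2 called lower (PpSPL9.1 and PpSPL9.2) and 2 not called (PpTFL1 and PpCEN).

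PpFT (PRUPE_6G364900), the homologue of the flowering signal FT, had 203, 271 and 306 normalized counts in the T5 libraries, against 99.6, 115 and 126 in the T1 libraries. All T5 libraries lay above all T1 libraries. The means were 260.3 ± 52.6 at T5 and 114 ± 13.1 at T1 (SD, n = 3 each), a log2 fold change of 1.16 ± 0.18 (SE, edgeR adjusted p = 0.000528).

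PpAP1 (PRUPE_1G290600), whose relative in Arabidopsis specifies floral meristems, was scarce, with 37, 36 and 21 raw counts in the T5 libraries and 9, 17 and 14 in the T1 libraries. Scaled to library size, these were 29.2, 34.4 and 28.2 normalized counts at T5, against 9.24, 17.4 and 11.3 at T1. The groups did not overlap and the log2 fold change was 1.26 ± 0.30 (SE, edgeR adjusted p = 0.00628). This call was close to the limit. The adjusted p stayed below 0.01 in 2 of the 6 edgeR fits that left out 1 library each and reached 0.033 in the others. Over all 6 the log2 fold change was 1.09 to 1.53. The adjusted p was 0.0106 in the edgeR fit with the replicate number as a block.

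PpTFL1 (PRUPE_7G112600), the homologue of the floral repressor TFL1, had 244, 203 and 310.5 normalized counts at T5, against 503, 387 and 438 at T1. No T5 library reached the level of a T1 library. The log2 fold change was -0.84 ± 0.17 (SE, edgeR adjusted p = 0.00231), which passed the FDR but not the 2-fold limit. The apical T3 libraries, with 1074, 911 and 715 normalized counts, were above every library of both other times, so that the comparison of T5 with T1 does not show the largest difference of this gene.

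PpCEN (PRUPE_6G128400), a member of the same family, had 91.7, 144 and 176 normalized counts at T5, against 227, 181 and 144 at T1. The groups overlapped, and the log2 fold change of -0.46 ± 0.25 did not pass the test (SE, edgeR adjusted p = 0.141).

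Both SPL genes fell. PpSPL9.1 (PRUPE_6G256300) had 1107, 952 and 1106 normalized counts at T5, against 3781, 3878 and 3713 at T1, and its log2 fold change was -1.87 ± 0.082 (SE, edgeR adjusted p = 8.29e-07). PpSPL9.2 (PRUPE_7G074200) had 413, 395 and 439 normalized counts at T5, against 1650, 1727 and 1584 at T1, with a log2 fold change of -2.02 ± 0.081 (SE, edgeR adjusted p = 6.46e-07). The replicates of each time lay close together, and the groups were far apart in both genes. In Arabidopsis, SPL9 promotes flowering as the plant ages.

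The B1-type cyclins, which act at the entry into mitosis, were both lower at T5. PpCYCB1.2 (PRUPE_6G021200) had 88.5, 99.4 and 106 normalized counts at T5, against 635, 718 and 615 at T1. Its log2 fold change was -2.77 ± 0.12 (SE, edgeR adjusted p = 8.38e-07), and 3.10% of all tested genes had a change of larger size. PpCYCB1.4 (PRUPE_4G269600) had 73.5, 96.5 and 114 normalized counts at T5, against 432, 440 and 386 at T1, and a log2 fold change of -2.19 ± 0.16 (SE, edgeR adjusted p = 8.76e-06). The libraries of the 2 times did not overlap in either gene.

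The trehalose phosphate synthase genes rose. PpTPS9 (PRUPE_5G176400) had 5967, 8395 and 6747 normalized counts at T5, against 832, 1035 and 988 at T1, a 7.39-fold higher mean with a log2 fold change of 2.86 ± 0.14 (SE, edgeR adjusted p = 1.19e-06). PpTPS10 (PRUPE_1G256200) had 15247, 21105 and 17810 normalized counts at T5, against 3058, 3684 and 3405 at T1, a 5.34-fold higher mean with a log2 fold change of 2.39 ± 0.13 (SE, edgeR adjusted p = 1.72e-06). In both genes T5 replicate 1 was the lowest and T5 replicate 2 the highest of the T5 libraries, and all of them stood well above T1.

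Of the gibberellin-related genes, 1 rose and 1 fell. PpGA2ox6 (PRUPE_4G150200), which encodes a gibberellin 2-oxidase, an enzyme that inactivates gibberellins, had 50446, 72708 and 64872 normalized counts at T5, against 5828, 5453 and 5200 at T1. This was the largest rise among the 15 genes, 11.4-fold in the means, with a log2 fold change of 3.49 ± 0.14 (SE, edgeR adjusted p = 6.58e-07), and 1.47% of all tested genes had a change of larger size. PpRSI-1 (PRUPE_3G161500), a member of the gibberellin-regulated GASA family, had 2080, 3980 and 2915 normalized counts at T5, against 7079, 7026 and 5594 at T1. Its log2 fold change was -1.16 ± 0.21 (SE, edgeR adjusted p = 0.00123). Without T5 replicate 1, the lowest library, it was -0.93, which passed the FDR but fell short of the 2-fold limit.

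The remaining genes were a thioredoxin and the 2 genes that the study used as references in qPCR. The thioredoxin gene (PRUPE_1G410500) was level, with 1265, 1101 and 1305 normalized counts at T5 against 1191, 1222 and 1249 at T1 (log2 fold change -0.022 ± 0.085, SE, edgeR adjusted p = 0.838). The sign of that small value turned with another scaling of the libraries. PpTEF2 (PRUPE_4G138900), a translation elongation factor, had 2936, 4012 and 3787 normalized counts at T5, against 854, 836 and 804 at T1, and was called higher with a log2 fold change of 2.08 ± 0.11 (SE, edgeR adjusted p = 1.78e-06). PpUBQ10 (PRUPE_4G204900), a polyubiquitin, had 32775, 43378 and 41840 normalized counts at T5, against 19832, 20895 and 22019 at T1. Its log2 fold change of 0.88 ± 0.11 passed the FDR but not the 2-fold limit (SE, edgeR adjusted p = 0.000165), and it was 1.02 without T5 replicate 1. In these counts, neither reference gene was level between the 2 times.

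**Figure D3:**
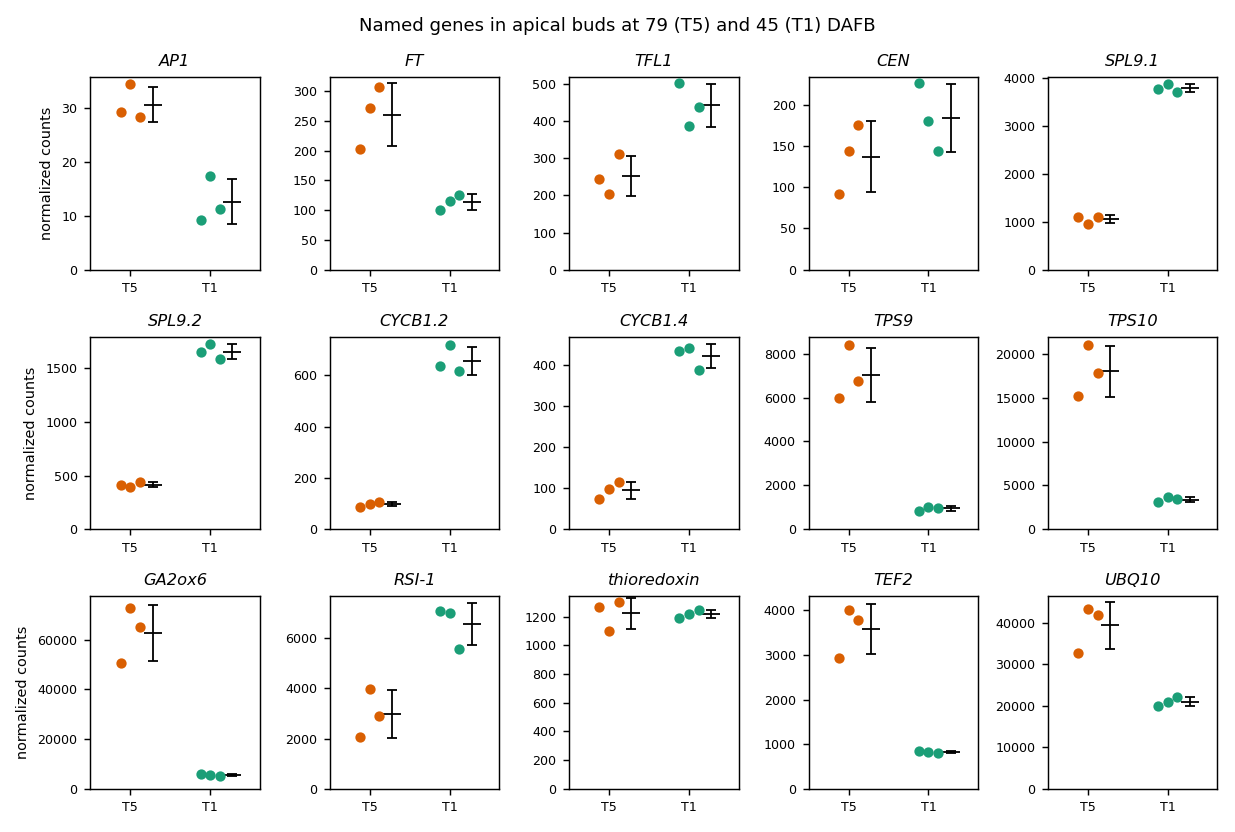
Normalized counts (y axis, from 0) of the 15 genes in each apical library at T5 (orange, left) and T1 (green, right). Points are libraries in the order of their replicate number, and the bar beside them is the mean with 1 SD (n = 3). The groups overlap only for PpCEN and the thioredoxin gene.

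The largest changes were in genes that were close to silent at one of the times. Called genes were ranked by fold change if their libraries separated by time and the mean of the higher time was 100 normalized counts or more (1505 higher and 2182 lower). The extremes of this ranking are given by identifier, because the sources used here give these genes no name. The 2 genes with the largest rises were PRUPE_8G238700 and PRUPE_7G121500. PRUPE_8G238700 had 362, 876 and 283 raw counts at T5, against 2, 2 and 1 at T1. The ratio of the summed counts, scaled for depth, was 318, with a 95% interval of 136 to 981 that covers counting error only. PRUPE_7G121500 had 272, 516 and 147 raw counts at T5, against 0, 1 and 3 at T1, a ratio of 244 (95% interval of 95.1 to 899). T5 replicate 2 was the highest library in both genes.

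The 2 genes with the largest falls were PRUPE_6G015900 and PRUPE_1G096800. PRUPE_6G015900 had 1, 1 and 0 raw counts at T5, against 320, 482 and 393 at T1, so that the ratio of T1 over T5 was 572 (95% interval of 158 to 4726). PRUPE_1G096800 had 5, 12 and 4 raw counts at T5, against 1337, 1157 and 2502 at T1, and the ratio of T1 over T5 was 228 (95% interval of 149 to 368). At T3, PRUPE_6G015900 still had 902, 93.0 and 760.1 normalized counts and PRUPE_1G096800 had 1742, 1333 and 1912 normalized counts. Apical T3 replicate 2 was below the T1 libraries in PRUPE_6G015900, and no T3 library of either gene was near the T5 level.

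A gene was treated as near-silent at a time if none of the 3 libraries exceeded 3 counts. There were 42 such genes at T1 that were called higher at T5, and their mean level at T5 was 11.0 to 501 normalized counts, with a median of 25.3. There were 39 such genes at T5 that were called lower, with a mean level at T1 of 12.5 to 379 and a median of 24.1. Near-silent genes entered the test only through the other time, and every one that was tested was called, so these counts describe the size of the classes and do not support a difference. With 1 library fewer to meet the limit, the classes held up to 69 genes (without T1 replicate 3) and 86 genes (without T5 replicate 1). Of the 42 genes, 17 were also near-silent in all apical T3 libraries, while none of the 39 was. All T1 libraries were at 0 for 3 of the 42 genes, whose levels at T5 were at least 5.10-fold to at least 9.31-fold higher, and all T5 libraries were at 0 for 2 of the 39, whose levels were at least 6.33-fold to at least 13.0-fold lower, each set against a floor of 3 counts per library.

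The apical libraries of 58 DAFB, which had no part in the test, showed when the change took place. On the log2 CPM scale, all 3 T3 libraries were nearer the T1 than the T5 mean in 3432 of the 4557 called genes (75.3%), and all 3 were nearer the T5 mean in 71 (1.56%). The libraries were split between both sides in the other 1054 genes. The shares were much the same in both directions, 1388 of the 1859 genes that rose (74.7%) and 2044 of the 2698 that fell (75.8%). By the mean of the T3 libraries, 4210 called genes (92.4%) were nearer T1.

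The T3 libraries were uneven. In the median called gene, T3 replicate 1 had covered 13.7% of the way between the T1 and T5 means, replicate 2 9.02% and replicate 3 12.4%. The genes between the quartiles spread from -13.5% to 42.5% in T3 replicate 1, against -3.51% to 22.8% and -0.86% to 26.4% in the other T3 libraries. Without T3 replicate 1, 4111 called genes (90.2%) were nearer the T1 mean in both libraries left. For the larger part of the called genes, most of the difference between T5 and T1 thus lay between 58 and 79 DAFB, which is also the longer interval. In 480 of the called genes, all 3 T3 libraries lay beyond the T1 mean, on the side away from T5.

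**Figure D4:**
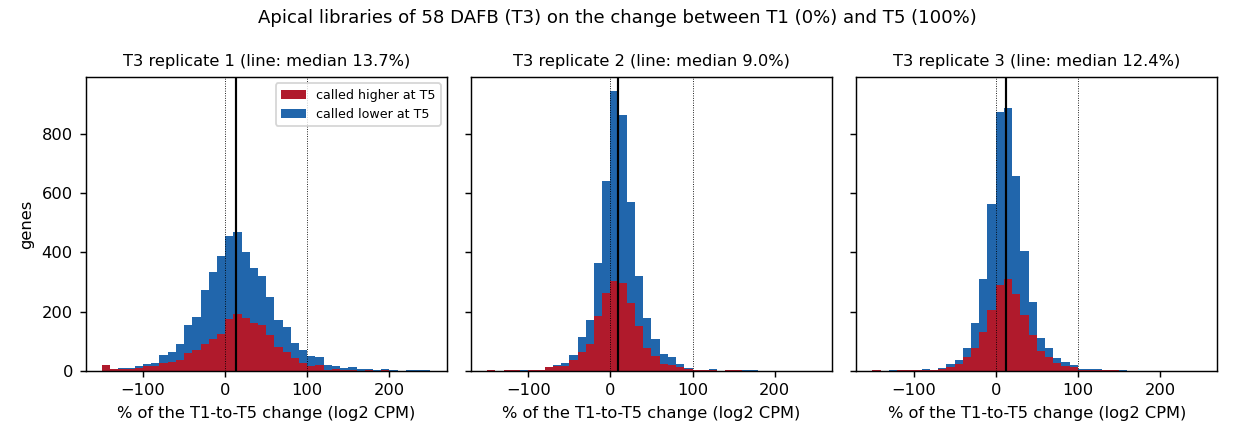
Number of called genes (y axis) by the position of each apical T3 library on the change between the T1 mean (0%) and the T5 mean (100%), measured on log2 CPM (x axis). Each panel is 1 library, red are genes called higher and blue genes called lower at T5 (stacked), and the solid line is the median. All medians lie near T1, at 13.7%, 9.02% and 12.4%, and the histogram of replicate 1 is the widest.

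Among the named genes, PpFT was intermediate at T3, with 188, 186 and 186 normalized counts. PpGA2ox6 had 8178, 7367 and 8054 at T3, a little above the T1 libraries and far below those of T5. PpSPL9.1, with a mean of 3303 ± 249 at T3, PpTPS9 with 995 ± 134 and PpTEF2 with 770.2 ± 161 (SD, n = 3) were close to their T1 means.

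Basal buds share no library with the apical ones and were compared over the same interval. In basal buds, 3706 of 19082 genes tested (19.4%) were called, 1813 higher and 1893 lower at T5. In these fits the genes that rose were about as many in apical as in basal buds, while apical buds had more genes that fell. Without apical T5 replicate 1, 2051 genes were called higher and 2731 lower in apical buds, so the near equality of the rises depends on that library. DESeq2 called 1968 higher and 2614 lower in apical buds, against 1861 and 1800 in basal buds. Genes called higher at both positions were 1267, which are 68.2% of the apical and 69.9% of the basal list. Genes called lower at both positions were 1453, which are 53.9% of the apical but 76.8% of the basal list. Genes called in opposite directions were 16, of which 11 were lower in apical and higher in basal buds at T5.

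Most genes called in apical and not in basal buds had a basal change of the same sign that was smaller in the median. Of the 4385 called apical genes that could be tested in basal buds, 1649 were not called there. The sign of the change was the same at both positions in 1503 of these, with a median basal log2 fold change of 0.68 for genes that rose and -0.71 for genes that fell in apical buds. Because these genes passed the limits in apical and failed them in basal buds, the smaller basal change is partly built into the choice. The share with the same sign over all genes was not counted. Whether the 2 positions differed was tested directly, as the difference between the apical and the basal log2 fold change in 12 libraries. This difference passed the same limits in 500 of 19597 genes (2.55%, edgeR), 191 with the higher and 309 with the lower log2 fold change in apical buds. The count fell to 296 without apical T1 replicate 1, 275 without apical T1 replicate 2 and 297 without basal T1 replicate 3, and it was 681 without apical T5 replicate 1. DESeq2 called 819 at the same limits, 300 higher and 519 lower. Of the 1821 genes called in apical and not in basal buds, 241 were among the 500, and the difference did not pass the FDR in 1467.

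The genes whose change differed were closer between the positions at T5 than at T1. Of the 475 that were tested in both positions, 195 changed in the same direction by more in apical buds, 62 in the same direction by more in basal buds, and 218 had fitted changes of opposite sign. The median gap between apical and basal buds in these genes was 0.48 log2 units at T5 and 1.10 at T1, and it was smaller at T5 in 385 of the 475. Without apical T5 replicate 1, the library displaced toward basal buds, the median gap at T5 was 0.49 and the count was 371 of the 475. Over all genes tested in both positions, the median gap was 0.18 at T5 and 0.23 at T1, but without that library it was 0.23 at T5 too. The test of the difference chose these genes, so the gaps describe them and are not a further test.

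The genes at both extremes of the apical change were also set beside their basal values. Over all 19082 genes tested in basal buds, 1813 were called higher and 1893 lower. Of the 92 genes that rose in apical buds by a log2 fold change of at least 4, 80 were tested in basal buds and 78 of them were called higher there too. The median log2 fold change of the 80 genes that rose was 4.67 in apical and 4.12 in basal buds. Of the 92, 8 were among the genes whose change differed, beside 2.55% of all genes tested for the difference. Of the 100 genes that fell in apical buds by as much, 68 were tested in basal buds, where 48 were called lower and 3 higher. Their median log2 fold change was -5.21 in apical and -2.77 in basal buds, and 38 of the 100 were among the genes whose change differed. In 90 of these 100 genes every apical T1 library lay above every basal T1 library, beside 31.1% of all genes tested in apical buds, and the median gap of apical over basal buds was -0.20 log2 units at T5 against 2.34 at T1. These genes were chosen for a high apical level at T1 relative to T5, and 32 of the 100 did not pass the filter in basal buds, so that the gap at T1 and the smaller basal change are partly built into the choice. Both the 92 and the 100 genes were chosen on the apical change, which also enters the test of the difference. The smaller basal median of the rises, and the counts of 8 and 38, are therefore partly built in as well.

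**Figure D5:**
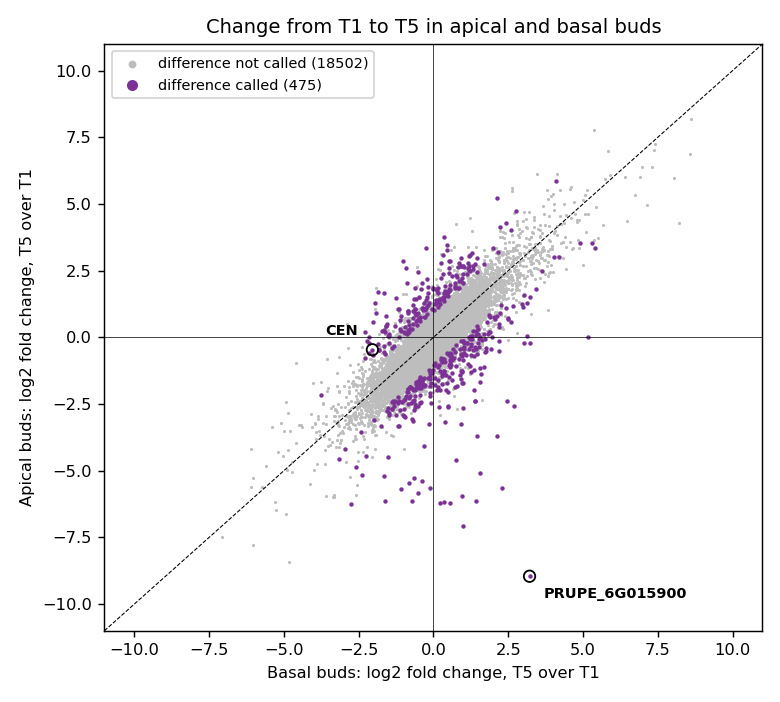
Log2 fold change, T5 over T1, in apical buds (y axis) against basal buds (x axis), for genes tested in both. Purple points are the 475 genes whose change differed between the positions, grey points the others, the dashed line marks equal change, and circles mark PpCEN and PRUPE_6G015900. Purple points at the bottom, below the dashed line, are genes that fell strongly in apical buds and fell less or rose in basal buds. PRUPE_6G015900 is one that rose there.

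Among the named genes, the change differed between the positions in PpCEN and in PRUPE_6G015900. PpCEN fell in basal buds, to 65.4, 64.0 and 44.7 normalized counts at T5 against 231, 238 and 256 at T1 (log2 fold change -2.04 ± 0.17, SE, edgeR adjusted p = 4.09e-06), while in apical buds it did not pass the test. The apical minus basal difference was 1.60 ± 0.33 log2 units (SE, edgeR adjusted p = 0.00743). This call was lost (edgeR adjusted p = 0.0186) with the replicate number within each time as a block. It was also lost in 10 of 12 edgeR fits without 1 library each, and over all 12 the difference was 1.39 to 1.83. DESeq2 on all 12 libraries kept the call, with a difference of 1.60 (DESeq2 adjusted p = 0.000118).

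PRUPE_6G015900, the largest apical fall, went the other way in basal buds, where it had 122, 18.5 and 27.3 normalized counts at T5, against 2.43, 9.87 and 6.43 at T1. Its basal log2 fold change was 3.21 ± 0.80 (SE, edgeR adjusted p = 0.00519). Basal T5 replicate 1 held most of those counts. The fitted difference was -12.15 log2 units (edgeR adjusted p = 0.000119), a value that depends on the prior count because apical T5 was nearly at 0, and it passed the FDR in all 12 edgeR fits without 1 library each.

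The other named genes did not pass the test of the difference. The thioredoxin gene, level in apical buds, had a basal log2 fold change of 0.44 ± 0.089 (SE, edgeR adjusted p = 0.0016). Its apical minus basal difference was -0.44 ± 0.13 (SE, edgeR adjusted p = 0.0336). PpAP1 had a basal log2 fold change of -0.33 ± 0.44 (SE, edgeR adjusted p = 0.524), and its apical minus basal difference of 1.61 ± 0.55 had an edgeR adjusted p of 0.0644 at its low counts. PpCYCB1.2 (edgeR adjusted p = 0.0511) and PpSPL9.2 (edgeR adjusted p = 0.0465) had a lower fitted log2 fold change in apical than in basal buds, with differences of -0.90 ± 0.29 and -0.47 ± 0.15 (SE), and did not pass the FDR of 0.01. For PpGA2ox6 and PpFT the differences were 0.28 ± 0.19 and 0.23 ± 0.29 log2 units (SE), with edgeR adjusted p of 0.336 and 0.635. The 2 genes with the largest apical rises were also higher at T5 in basal buds, where PRUPE_8G238700 averaged 195 ± 51.8 normalized counts at T5 against 0.33 ± 0.57 at T1, and PRUPE_7G121500 averaged 125 ± 56.9 against 2.76 ± 1.93 (SD, n = 3).

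The called genes were spread over the genome. By the chromosome number that each identifier carries, between 20.9% (chromosome 2) and 24.9% (chromosome 8) of the tested genes of each of the 8 chromosomes were called.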

How the data were processed

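The libraries of buds were made with a stranded mRNA kit, per the labels. Per the study's methods and processing notes, the authors checked the reads with FastQC, aligned them with HISAT2 and counted them per gene with HTSeq. The authors deposited the raw count of every gene in each of the 18 libraries, without normalization. The counting mode and strand setting are not given in the sources used here, so reads of overlapping or near-identical genes may have been shared or dropped. Column names gave each library's group, and 0 columns were left unused.

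Genes were tested with edgeR 4.0.16 (quasi-likelihood, TMM, its filter on low counts) in R 4.3.3 on the 6 apical libraries of T5 and T1, with Benjamini-Hochberg adjustment over all genes tested. A gene was called at an FDR below 0.01 and at least a 2-fold change. The log2 fold change is T5 over T1, and its SE was obtained from the F statistic as |log2 fold change| / sqrt(F). Normalized counts use TMM over all 18 libraries, which shifts T5 over T1 by 0.025 log2 units from the scaling of 6 libraries. Depth was 27373887 to 41764570 counts per library, and 3 replicates per group limit the precision (an exact permutation test of 3 against 3 cannot go below a two-sided p of 0.1). Log2 CPM used a prior count of 2. Figures were drawn with matplotlib 3.10.9.

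Genes named are those the study names by identifier, plus the 2 largest rises and the 2 largest falls among called genes with no overlap of the groups and a higher mean of at least 100 normalized counts. Of the gene identifiers, 0 matched the RefSeq table at hand, so that lists by product words and a list of leaf markers, which needed names, were not run, and no sequence is shown. Members and lists were chosen with earlier results of these data known. Alternatives were DESeq2 1.42.0, median-of-ratios scaling, no or another filter, 9 or 18 libraries in the fit, the replicate number as a block, a test against a 2-fold change, an FDR of 0.05 with no fold limit, floors of 0 and 10 counts, and leaving out each library.

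On data simulated from these libraries, with 200 genes changed by a log2 of 2, edgeR recovered 98.5% in the apical comparison (19374 genes) and 93.5% in the apical minus basal comparison (19597 genes). As many genes were raised as lowered, and genes with the lowest mean levels were not drawn. In the apical data 23.5% of genes were called, with median changes of 1.65 and -1.60. The simulated shares are therefore not the recovery of smaller changes or of genes with few counts. Apical and basal buds were cut from the same shoots, per the study's methods, so that the replicate number was taken to pair positions within a time. The correlation of deviations with the same number was 0.19, 0.014 and -0.071 at T5 and 0.097, 0.075 and 0.035 at T1. Between different numbers it was -0.21 to 0.19 at T5 and -0.080 to 0.0051 at T1, so these values do not settle the pairing.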

Additional observations from a re-analysis of the deposited data

Results flagged for a closer look

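The change between T5 and T1 differed between apical and basal buds in 500 genes, by the edgeR test of that difference in 12 libraries. The count was 275 to 681 in fits without 1 library and 819 with DESeq2. Among the named genes, the difference passed the FDR for PRUPE_6G015900, at -12.15 log2 units, in all 12 edgeR fits without 1 library. It was 1.60 log2 units for PpCEN, a call that held in 2 of those 12 fits. That call was lost with the replicate number within each time as a block (edgeR adjusted p = 0.0186) and kept with DESeq2 (DESeq2 adjusted p = 0.000118).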

How the results depend on the processing

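The apical count of 4557 called genes was within 1.5 times under DESeq2, both other filters, the other scaling, 9 or 18 libraries in the fit, the replicate block (4546, of which 4455 were the same genes) and every fit without 1 library (4190 to 4782). It was 2277 with a test against a 2-fold change and 12044 with an FDR of 0.05 and no fold limit. In all 6 fits without 1 library, 3646 of the 4557 genes were called again. Near-silent genes numbered 3 at T1 and 2 at T5 with a floor of 0 counts, 162 and 178 with a floor of 10, 95 and 91 with no filter, and 39 to 69 and 43 to 86 without 1 library, where fewer libraries or genes had to meet the limits. The genes whose change differed between positions were 819 with DESeq2, 3024 with an FDR of 0.05 and no fold limit, and 275 to 681 without 1 library. They were 494 with the replicate number within each time as a block. The cause of these differences was not tested. The sources used here do not say that the replicate numbers pair the T5 and T1 libraries. Deviations of libraries with the same number correlated at 0.026, 0.00091 and 0.063, which does not settle it. In the apical T5 and T1 comparison, the block ended the call of PpAP1 only among the named genes (1.27). That call was also lost in 4 of 6 fits without 1 library, and over all 6 the log2 fold change was 1.09 to 1.53. The thioredoxin gene, which was not called, turned positive with DESeq2 (0.012), median-of-ratios scaling (0.012), 9 libraries (0.010), 18 libraries (0.0033) and without T5 replicate 2, with a range of -0.056 to 0.051 without 1 library. Depth limits the genes with few counts, such as PpAP1, with 9 raw counts in its lowest library. The interaction fits of PpCEN and PRUPE_6G015900 under other settings, and the gaps without apical T5 replicate 1, were chosen after seeing the data.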
